A study of Mus musculus with 6 samples.

Results

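Protein arginine methyltransferases are the enzymes that add methyl groups to arginine residues of histones, RNA-binding proteins, and signaling proteins. The family was taken as 9 listed genes, namely Prmt1, Prmt2, Prmt3, Carm1, Prmt5, Prmt6, Prmt7, Prmt8, and Prmt9. Of these, 8 were measured among the 21269 genes of the table, and all 8 were among the 15650 that were tested, whose mean was 5 or more. The expression of Prmt8 was not analysed here. The family was selected on the normalized counts of Prmt2, which fell strongly in these same libraries, so that fall is described below without a test and supports nothing else.

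RNA was sequenced from the HL-1 line of murine atrial cardiomyocytes after silencing of Malat1, a long nuclear noncoding RNA. All cells were grown in Claycomb medium with norepinephrine, plated 24 hours before transfection, and lysed 48 hours after RNAiMAX delivery of a gapmer at 50 nM. Gapmers are short DNA strands capped with locked nucleic acid (LNA) that lead RNase H to a matching RNA. The groups were LNA Control, which received a control gapmer, and LNA Malat1, which received the gapmer against Malat1, with 3 libraries in each. All 6 libraries came from 1 cell line, and the sample labels do not say that they came from separate cultures, so p-values measure the spread between these libraries, which may be technical.

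All arginine methyltransferases take the methyl group from S-adenosylmethionine. Type I enzymes (Prmt1, Prmt2, Prmt3, Carm1, Prmt6, and Prmt8) place both methyl groups on the same terminal nitrogen and make asymmetric dimethylarginine, type II enzymes (Prmt5 and Prmt9) place them on different nitrogens and make symmetric dimethylarginine, and the type III enzyme Prmt7 stops at monomethylarginine. In the heart, members of the family have been studied for their roles in contractile function, splicing, and the hypertrophic response.

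The family members share a catalytic loop with a pair of glutamate residues, the double-E loop, which holds the arginine of the substrate. The coding sequence of this loop is shown because it is the part that relates the measured genes to each other. It was searched as codons for serine, glutamate, any 2 residues, glycine, any 5 residues, and glutamate in the longest coding sequence of each gene in GENCODE release 21 for mouse (mm10). Capitals mark both glutamate codons.
Prmt1: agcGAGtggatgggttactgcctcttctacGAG
Prmt2: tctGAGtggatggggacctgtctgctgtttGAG
Prmt3: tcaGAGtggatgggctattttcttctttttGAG
Carm1: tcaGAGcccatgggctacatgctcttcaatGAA
Prmt5: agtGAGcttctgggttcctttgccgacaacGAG
Prmt6: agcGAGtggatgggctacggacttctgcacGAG
Prmt8: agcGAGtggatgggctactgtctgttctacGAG
Each window is 33 bases long and occurred once in its gene. In Prmt2 it covers codons 222 to 232 and runs across the junction of coding exons 5 and 6 on the minus strand, within chr10:76217484-76221024. Compared base by base with Prmt2, 25 of the 33 bases were the same in Prmt3, 23 in Prmt8, 21 in Prmt1, 21 in Prmt6, 17 in Carm1, and 15 in Prmt5. The type II enzyme Prmt5 was thus the most distant from Prmt2 in this window. The coding sequences of Prmt7 and Prmt9 hold no match to this full pattern. It also asks for the serine and the glycine, so the search does not show whether their glutamate spacing differs. No stretch of 75 bases, the read length, was shared between the transcripts of any pair of members.

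The deposited values are read counts per gene after normalization by 1 factor per library and rounding, called normalized counts here. They summed to between 4758777 and 4921406 per library, and the steps left by rounding correspond to between 4511897 and 5593823 reads on genes. Malat1 was at 5051, 5197, and 4369 normalized counts after LNA Control and at 2833, 2792, and 2732 after LNA Malat1, so the targeted RNA remained at 57.2% of control (log2 fold change −0.80 with SE 0.07, adjusted p = 7.5e-06 by limma). LNA Malat1 replicates 1 and 3 differed by less than sampling noise (chi-square per gene 0.95) and, being the most alike, entered each mean ± SD as 1 sample, which leaves n = 2 in LNA Malat1 beside n = 3 in LNA Control. Replicates 1 and 2 did not differ beyond that noise either (1.01 per gene, chi-square p = 0.15), so the noise alone does not single out the pair, whereas LNA Control replicates differed by more (1.77 to 4.18 per gene). Of 12 cardiomyocyte markers, 10 had a mean of at least 5, with sums of 5414 to 5733 after LNA Control and 5228 to 5422 after LNA Malat1, while Myh6 was between 0 and 7 in every library and Nppa was not analysed here. Ryr2 alone gave 2237 to 2706 of each sum, and single markers moved both ways. Actn2 (log2 fold change 0.71, adjusted p = 0.0011 by limma) and Tnnt2 (0.15, 0.034) were higher. Gata4 (−0.21, 0.0079) and Tbx5 (−0.22, 0.045) were lower, and the other tested cardiomyocyte markers did not pass the test. Of 6 fibroblast markers, 3 had a mean of at least 5, chiefly Col1a1 and Postn, and Col1a2 was at 0 or 1, with sums of 2928 to 3362 after LNA Control and 2685 to 2757 after LNA Malat1. Sums of the endothelial markers (2 of 5 with a mean of at least 5, 19 to 28 after LNA Control and 32 to 35 after LNA Malat1) and of the leukocyte markers (2 of 5, 35 to 37 and 59 to 90) were low and higher in LNA Malat1, and their part in the results below was not tested. Genes at such low levels were higher as a whole. The median log2 fold change was 0.37 for means from 5 to 20 and 0.14 for means from 20 to 100. After quantile normalization these medians were −0.07 and −0.02.

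Per kilobase of exonic length, the family spanned about an order of magnitude in LNA Control cells. Prmt1, the main source of asymmetric dimethylarginine in most cells, had the highest mean level at 163 normalized counts per kilobase, and Prmt5, the main source of symmetric dimethylarginine, followed at 158, with ranges that overlapped (152 to 177 and 156 to 160). Prmt7 came next at 145 normalized counts per kilobase. Carm1, a coactivator that methylates histone H3, was at 91.0, and Prmt3, a cytosolic enzyme that methylates a ribosomal protein, was at 80.9. The splicing factor methyltransferase Prmt9 was at 45.1, Prmt2 at 24.0, and Prmt6, a nuclear enzyme acting on histone H3, at 17.2. Apart from Prmt1 and Prmt5, no neighbors in this order had overlapping ranges over the 3 libraries. Full exonic lengths were used, although genes on the opposite strand share 23.4% of the exonic bases of Prmt6 and 21.1% of those of Carm1. If strand was not used in counting, reads there were left out, so the place of Prmt6 below Prmt2 is uncertain.

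**Figure D1:**
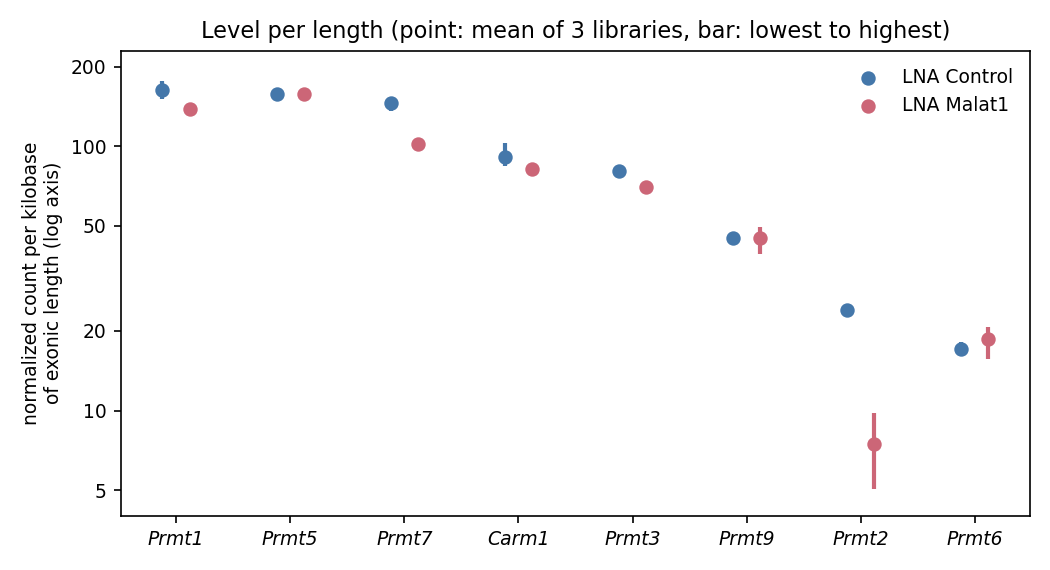
Level of each arginine methyltransferase gene in normalized counts per kilobase of exonic length on a log axis, with points for the mean of 3 libraries and bars from the lowest to the highest library. Prmt2 goes from 24.0 to 7.49 and below Prmt6, and Prmt5 stays at 158 while Prmt1 goes from 163 to 139.

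In LNA Malat1 cells, the order of the per-kilobase levels was Prmt5 (158), Prmt1 (139), Prmt7 (102), Carm1 (82.0), Prmt3 (69.9), Prmt9 (45.0), Prmt6 (18.6), and Prmt2 (7.49), with no overlap between neighbors. Prmt5 was thus above Prmt1 in mean level. Their order was not settled after LNA Control, where Prmt5 was already the higher in replicate 3 (156 against 152 per kilobase). Prmt2 was below Prmt6, which restates the fall for which the family was picked. The summed per-kilobase level of the family was 758, 716, and 699 after LNA Control and 626, 627, and 611 after LNA Malat1, lower in all 3 LNA Malat1 libraries. This sum and the shares below include Prmt2, for whose fall the family was picked. Without Prmt2, the normalized counts of the family, not divided by length, summed to 3484, 3290, and 3210 after LNA Control. They summed to 2902, 2893, and 2825 after LNA Malat1. Of the per-kilobase sum with Prmt2, type I genes made up 50.9% to 53.2% after LNA Control and 50.7% to 51.4% in LNA Malat1. These ranges overlap. Type II genes made up 26.8%, 28.4%, and 28.9% after LNA Control and 32.8%, 32.6%, and 32.5% after LNA Malat1. The type III gene Prmt7 made up between 19.5% and 20.7% in LNA Control and between 16.04% and 16.8% in LNA Malat1. The type II share was therefore higher and the type III share lower in every LNA Malat1 library, although shares of 1 sum are not independent of each other.

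Silencing of Malat1 was accompanied by lower levels of Prmt1, Prmt3, and Prmt7, besides Prmt2, and no member rose. Of the 7 measured members other than Prmt2, these 3 were lower with an adjusted p no higher than 0.05, beside 14.0% of all genes tested that were lower by that criterion, and none was higher, beside 14.3%. None of the 7 also reached a 1.5-fold change, a combination that 10.9% of all genes tested reached in either direction and 2.92% by being lower. Their median log2 fold change was −0.14, against 0.02 over all genes tested. Apart from Prmt6, these members had levels at which the median of all genes was −0.05 or −0.04. Of the 7, 6 had a negative sign, beside 7388 of the 15650 genes tested. Those 6 include Prmt5 (−0.00) and Prmt9 (−0.01), which were nearly level and whose signs each changed in 5 of 16 alternatives. With Prmt2 the median was −0.18, a value lowered by the gene for whose fall the family was picked. The groups did not overlap, with LNA Malat1 lower, for the same 3 of 7 genes, beside 20.8% of all genes tested. Fold changes are on the scale of log2(normalized count + 1), and in whole-culture RNA fewer cells of a kind and less RNA per cell cannot be told apart.

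**Figure D2:**
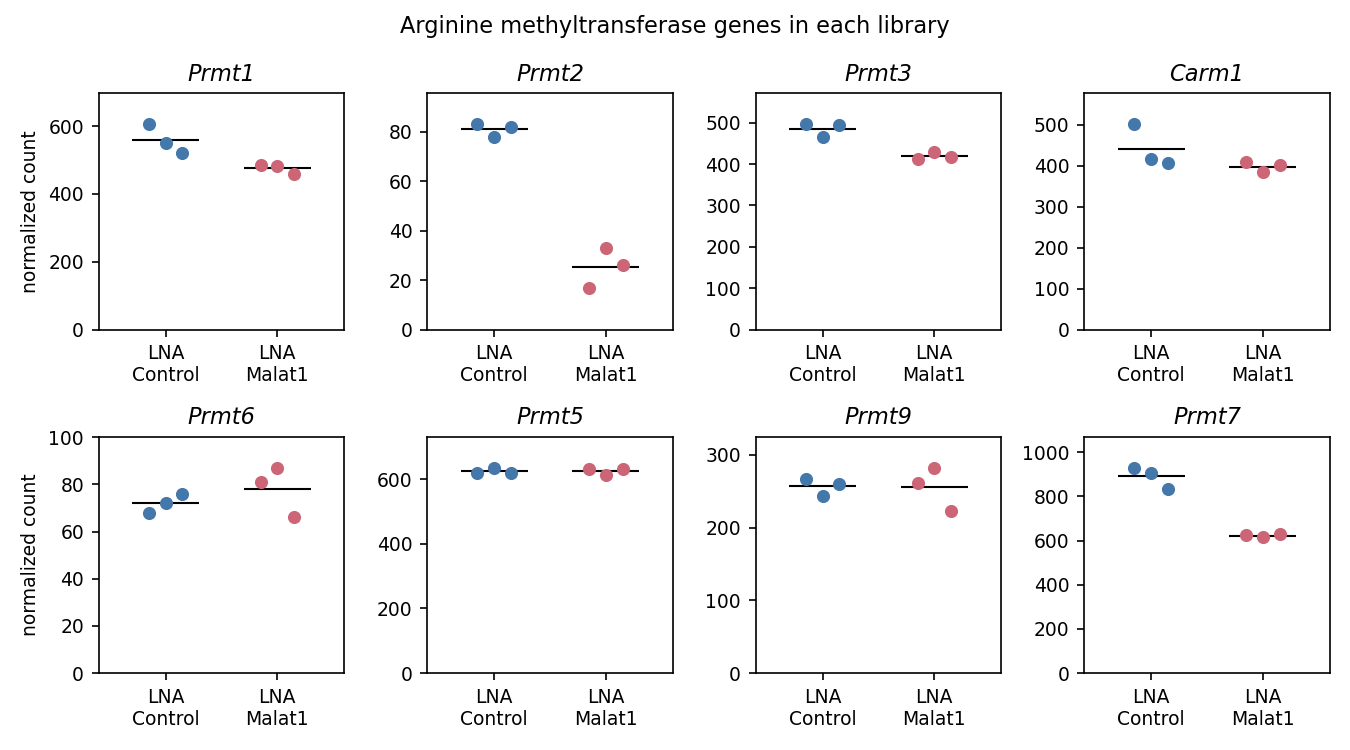
Normalized counts of the 8 measured arginine methyltransferase genes in each library, with 1 point per library, a line at the mean of the 3 libraries, and a separate axis from 0 for each gene. The groups do not overlap for Prmt1, Prmt2, Prmt3, and Prmt7.

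Among the type I genes, Prmt2 encodes an enzyme with an SH3 domain that acts as a coactivator of nuclear hormone receptors. The gene lies on the minus strand of chromosome 10 (chr10:76207222-76237865, mm10) and is the host of the microRNA gene Mir678. Prmt2 was at 83, 78, and 82 normalized counts after LNA Control and at 17, 33, and 26 after LNA Malat1. The LNA Control libraries lay close together, and the highest LNA Malat1 library was far below the lowest of them. The means were 81.0 ± 2.65 (SD, n = 3) and 27.3 ± 8.13 (SD, n = 2), with the latter at 33.6% of the former. Fitted on the 6 separate libraries, the log2 fold change was −1.69 (SE 0.21), against −1.57 where LNA Malat1 replicates 1 and 3 were averaged first. This was the 5th lowest log2 fold change of the 15650 genes tested, and it lay between −1.89 and −1.44 over 16 alternatives. Because the family was picked for this fall, these values are a description. The reads behind them were few: 76, 72, and 95 recovered reads after LNA Control and 18, 33, and 29 after LNA Malat1, with exact Poisson 95% intervals of 10.7 to 28.4, 22.7 to 46.3, and 19.4 to 41.6 for the latter, which cover counting error only. Prmt2 provided 3.24%, 3.22%, and 3.47% of the per-kilobase sum of the family after LNA Control and 0.803%, 1.56%, and 1.26% after LNA Malat1.

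Prmt1 (chr7:44975989-44986568, minus strand) was at 605, 551, and 519 normalized counts after LNA Control and at 485, 483, and 460 after LNA Malat1. All LNA Malat1 libraries were below all LNA Control libraries, by a small margin. The means were 558 ± 43.5 (SD, n = 3) and 478 ± 7.42 (SD, n = 2), for a log2 fold change of −0.23 with SE 0.06 (adjusted p = 0.017 by limma). The adjusted p exceeded 0.05 under 5 of 16 alternatives, at 0.051 without LNA Control replicate 2, 0.052 without LNA Malat1 replicate 1, 0.083 without LNA Malat1 replicate 3, 0.061 with LNA Malat1 replicates 1 and 3 as 1 sample, and 0.069 after quantile normalization.

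Prmt3 (chr7:49778346-49858265, plus strand) was at 496, 465, and 494 normalized counts after LNA Control and at 412, 429, and 416 after LNA Malat1. The groups were separate, and the spread within each was small. The means were 485 ± 17.3 (SD, n = 3) and 422 ± 10.6 (SD, n = 2), for a log2 fold change of −0.21 with SE 0.05 (adjusted p = 0.012 by limma). The adjusted p exceeded 0.05 without LNA Malat1 replicate 1 (adjusted p = 0.057) and after quantile normalization (0.056).

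Carm1 (chr9:21546894-21592623, plus strand) was at 501, 417, and 407 normalized counts after LNA Control and at 409, 384, and 401 after LNA Malat1. LNA Control replicate 1 stood above the rest, and LNA Malat1 replicate 1 overlapped the other LNA Control libraries. The difference did not pass the test (log2 fold change −0.14, 95% interval −0.31 to 0.02, adjusted p = 0.17 by limma). Of the exonic bases of Carm1, 21.1% are shared with Yipf2 on the opposite strand, and Yipf2 was at 83, 71, and 88 after LNA Control and 86, 93, and 69 after LNA Malat1 (adjusted p = 0.89 by limma).

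Prmt6 (chr3:110246109-110250998, minus strand) was the only measured member with a positive log2 fold change. It was at 68, 72, and 76 normalized counts after LNA Control and at 81, 87, and 66 after LNA Malat1, with LNA Malat1 replicate 3 below every other library. The difference did not pass the test (log2 fold change 0.11, 95% interval −0.17 to 0.39, adjusted p = 0.58 by limma). The antisense gene C130013H08Rik shares 23.4% of the exonic bases of Prmt6, and it rose from 24, 14, and 20 to 54, 47, and 41 normalized counts (log2 fold change 1.27 with SE 0.22, adjusted p = 0.0011 by limma). The kit was stranded, but whether strand was used in counting is not given in the sources used here, so the values of Prmt6 and of this antisense gene are uncertain where they overlap.

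Of the type II genes, Prmt5 (chr14:54507187-54517525, minus strand) was nearly level across all 6 libraries. It was at 619, 635, and 619 normalized counts after LNA Control and at 631, 612, and 630 after LNA Malat1, and the groups overlapped. The log2 fold change was −0.00 with a 95% interval of −0.11 to 0.11 (adjusted p = 1 by limma), and its sign changed in 5 of 16 alternatives. Prmt9 (chr8:77549397-77581338, plus strand) was at 266, 243, and 260 after LNA Control and at 261, 282, and 223 after LNA Malat1. Its LNA Malat1 libraries enclosed the LNA Control values, and the log2 fold change was −0.01 with a 95% interval of −0.19 to 0.17 (adjusted p = 0.94 by limma), also with a sign that changed in 5 of 16 alternatives.

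Prmt7 (chr8:106210936-106252794, plus strand) had the smallest adjusted p of the members other than Prmt2. It was at 929, 907, and 835 normalized counts after LNA Control and at 623, 616, and 629 after LNA Malat1. The LNA Malat1 libraries lay within a narrow band, well below the lowest LNA Control library. The means were 890 ± 49.2 (SD, n = 3) and 621 ± 7.07 (SD, n = 2), with the latter at 69.7% of the former. The fit on the 6 libraries gave a log2 fold change of −0.51 with SE 0.05 (adjusted p = 2.4e-05 by limma). The fall stayed under the 1.5-fold minimum, and over the 16 alternatives the log2 fold change lay between −0.56 and −0.46 with adjusted p between 3.6e-06 and 0.00074. Smpd3 on the opposite strand shares 4.03% of the exonic bases of Prmt7 and did not pass the test (log2 fold change −0.19, adjusted p = 0.12 by limma).

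**Figure D3:**
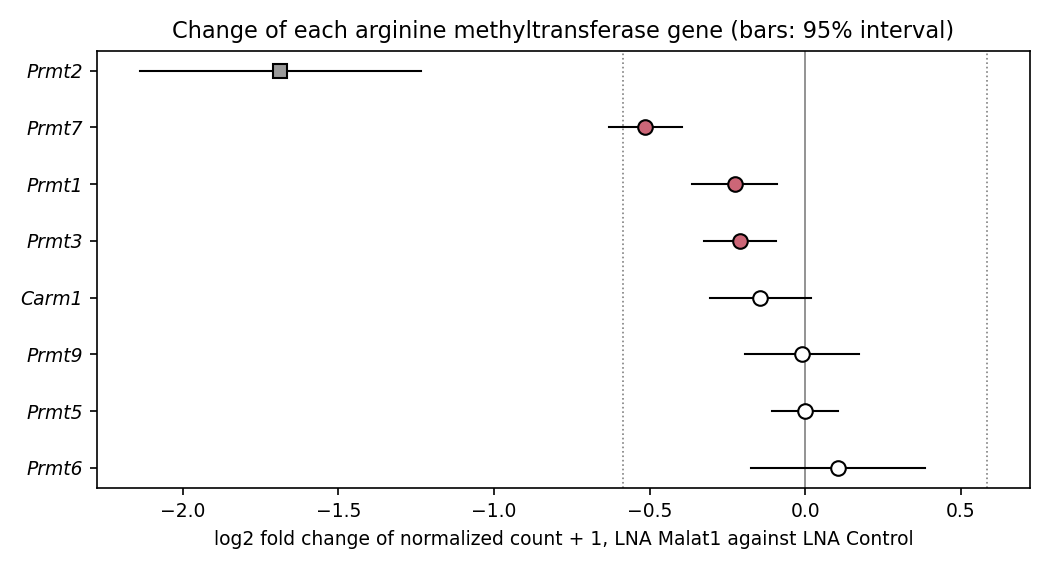
Log2 fold change of normalized count + 1, LNA Malat1 against LNA Control, for each arginine methyltransferase gene, with 95% intervals as bars and dotted lines at a 1.5-fold change in either direction. Filled circles mark genes that passed the adjusted p of 0.05, open circles the others, and the gray square marks Prmt2 (−1.69), which was picked for its fall and carries no test.

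Ratios between members within a library do not depend on how the libraries were scaled. Prmt5, chosen as the denominator after its values were seen, gave per-kilobase ratios of Prmt7 to Prmt5 of 0.970, 0.923, and 0.872 after LNA Control and 0.638, 0.650, and 0.645 after LNA Malat1. The ratio of Prmt1 to Prmt5 was 1.13, 1.00, and 0.969 after LNA Control and 0.888, 0.912, and 0.844 after LNA Malat1. The ratio of Prmt3 to Prmt5 was 0.529, 0.483, and 0.527 after LNA Control and 0.431, 0.463, and 0.436 after LNA Malat1. The groups did not overlap in any of these 3 ratios, each with an exact two-sided permutation p = 0.1 (0.1 after adjustment over the 3), which is the smallest that 3 against 3 libraries can give. The 3 numerators were already seen to be lower without overlap, and Prmt5 to be nearly level. The separation therefore follows from the choice of genes and adds no support.

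The share of genes that changed depended on the level of expression, so the members were set beside genes of similar level. Among the 3205 genes whose mean reached 500 normalized counts, which include Prmt1, Prmt5, and Prmt7, 22.7% were lower by adjusted p and the median log2 fold change was −0.05. Among the 5706 genes with a mean from 100 to 500, which include Prmt3, Carm1, and Prmt9, 20.9% were lower and the median was −0.04. Among the 3414 genes with a mean from 20 to 100, the range of Prmt2 and Prmt6, 6.94% were lower, 19.8% were higher, and the median was 0.14. After quantile normalization the median of that last range was −0.02.

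Within 500 kilobases on chromosome 10, 17 genes were tested, with a median log2 fold change of −0.02. By adjusted p alone, 3 were lower and 2 were higher, 5 of 17 in all, a share close to the 28.3% of all genes tested that passed it. The nearest tested gene on one side, Dip2a, was at 403, 370, and 374 normalized counts after LNA Control and at 324, 340, and 360 after LNA Malat1 (log2 fold change −0.16, adjusted p = 0.067 by limma). The nearest on the other side, Zfp280b, rose from 415, 422, and 411 to 517, 470, and 476 (log2 fold change 0.23, adjusted p = 0.0093 by limma), with an adjusted p of 0.06 without LNA Malat1 replicate 1. The genes that also passed the 1.5-fold minimum were the collagen genes Col6a1 (−0.80, adjusted p = 1.5e-05 by limma) and Col6a2 (−0.59, 0.0021), both lower, and the glutathione transferase gene Gstt2 (0.94, 0.0047), which was higher. These 3 of 17 genes, 2 of them lower, stand beside 10.9% of all genes tested that passed both criteria and 2.92% that did so by being lower. They were named once their values had been seen.

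**Figure D4:**
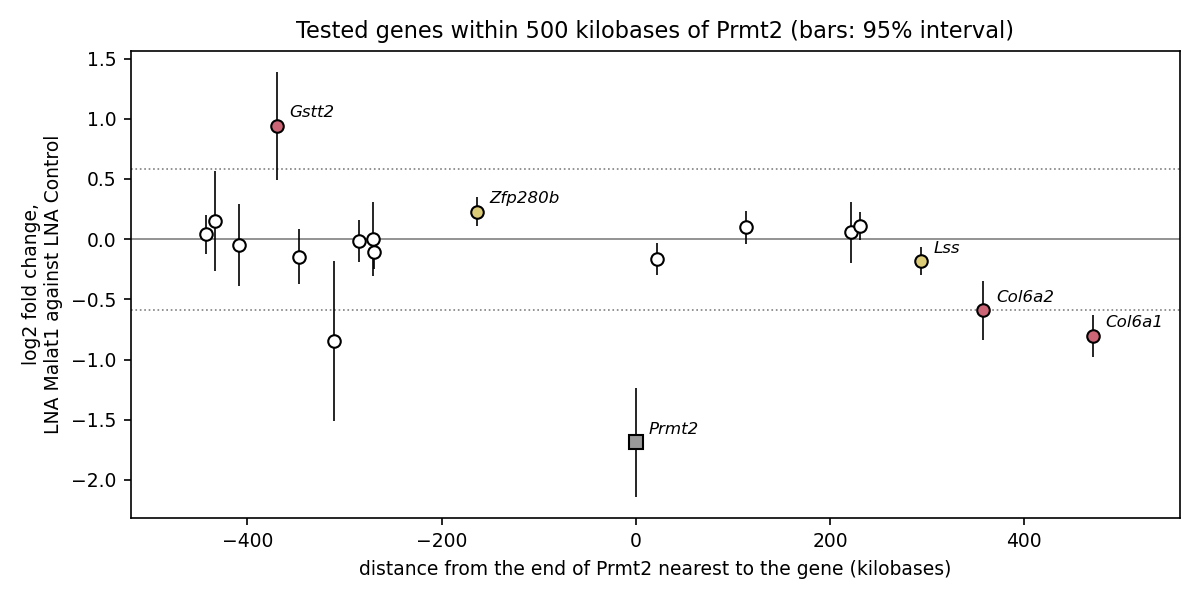
Log2 fold change of the 17 tested genes within 500 kilobases of Prmt2 against their distance in kilobases, with 95% intervals as bars and dotted lines at a 1.5-fold change. Red points were called, yellow points passed the adjusted p alone, open points did not pass, and Prmt2 (gray square) stands below the rest.

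In the 300 bases around annotated starts (250 before and 50 after, RefSeq, GRCm38.p6), the members' promoters were rich in CpG. The 9 windows of the 8 members with an entry held between 16 and 44 CpG, with 20 in Prmt2 and 39 in Prmt7, whereas the median over 32851 promoters was 7. Of all those promoters, 33% held at least 16. Prmt5 held 16 and Prmt1 held 17. Any relation of this count to the fold changes was not tested. The gene ontology terms listed in the deposited table name protein-arginine N-methyltransferase activity for 7 members, and the row of Prmt2 lists no terms.

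The 3 genes whose pattern over the 6 libraries was closest to Prmt2 were Mamstr, Nck2, and Plekha8, with Euclidean distances of 0.58, 0.62, and 0.62 between log2 deviations from each gene's own mean. Mamstr, a coactivator of MEF2 transcription factors, was at 9, 10, and 11 normalized counts after LNA Control and at 2, 3, and 4 after LNA Malat1. Nck2, an SH2 and SH3 adaptor protein, went from 211, 212, and 216 to 75, 98, and 86. Plekha8, a glycolipid transfer protein, went from 198, 242, and 222 to 72, 84, and 78. All 3 were low in every LNA Malat1 library, which follows from how they were chosen.

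Genes that act with, upstream, or downstream of arginine methylation were examined in 7 lists with 90 genes, of which 80 were tested. By adjusted p alone, 9 were higher and 14 were lower, beside 14.3% and 14.0% of all genes tested, so that 23 of 80 in all is close to the 28.3% of all genes. The shares of all genes also apply to each list below. With the 1.5-fold minimum, 4 were called higher and 4 lower, which is 8 of 80 beside 10.9% of all genes tested. The median log2 fold change was −0.01 over the 80 genes and 0.02 over all genes.

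**Figure D5:**
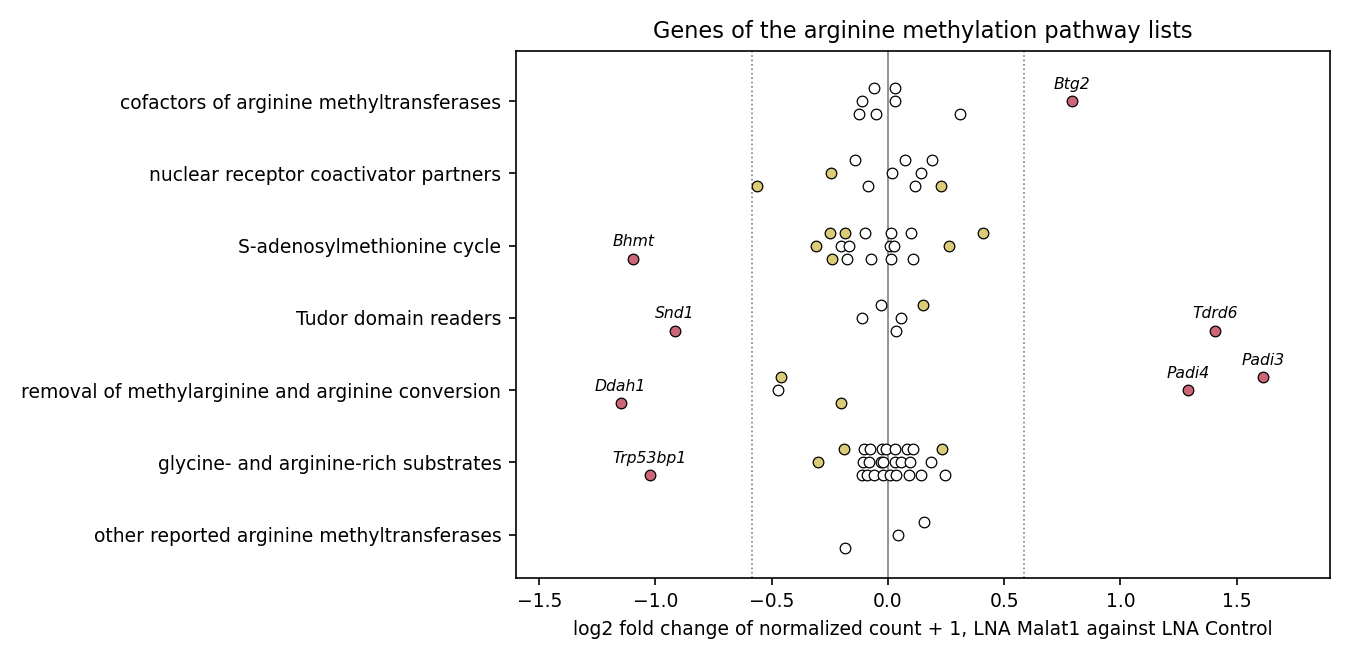
Log2 fold change of the 80 tested genes of the 7 arginine methylation lists, LNA Malat1 against LNA Control, with dotted lines at a 1.5-fold change. Red points were called and are named, yellow points passed the adjusted p alone, and open points did not pass.

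Among the 8 genes for cofactors of the enzymes, 1 was higher and none lower. Btg2, an antiproliferative protein that binds Prmt1, rose from 139, 157, and 155 to 284, 256, and 244 normalized counts, with no overlap (log2 fold change 0.79 with SE 0.08, adjusted p = 1.8e-05 by limma). The Prmt5 partners Wdr77, Clns1a, Riok1, and Coprs had log2 fold changes of 0.03, −0.06, 0.03, and −0.12 and did not pass the test (limma adjusted p of 0.75, 0.51, 0.71, and 0.31). They were named after their values were seen. The median of the list was −0.01.

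Among the 10 tested nuclear receptor coactivator partners, 1 was higher and 2 were lower, and none was called with the fold minimum. Ncoa2, a p160 coactivator that recruits Carm1, fell from 587, 560, and 601 to 366, 383, and 436 (log2 fold change −0.56 with SE 0.07, adjusted p = 6.6e-05 by limma). Kat2b, a histone acetyltransferase, fell by 0.25 on the log2 scale (adjusted p = 0.0042). Rb1, the retinoblastoma protein, rose by 0.23 (adjusted p = 0.017) and was named after its value was seen. The median of the list was 0.04.

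In the S-adenosylmethionine cycle, which supplies the methyl donor, 2 of 18 tested genes were higher and 5 lower by adjusted p, beside 14.3% and 14.0% of all genes tested, with a median of −0.09. Bhmt, which remethylates homocysteine from betaine, was at 11, 11, and 12 normalized counts after LNA Control and 5, 3, and 7 after LNA Malat1 (log2 fold change −1.10 with SE 0.36, adjusted p = 0.04 by limma). These counts are near the minimum for testing, and the call was lost under 7 of 15 alternatives, leaving out any of 5 of the libraries among them, with adjusted p between 0.0061 and 0.13 over all 15. Mat1a, an S-adenosylmethionine synthetase, went from 45, 46, and 39 to 58, 58, and 57 (log2 fold change 0.41 with SE 0.14, adjusted p = 0.046 by limma), and the adjusted p exceeded 0.05 under 10 of 16 alternatives, leaving out any 1 library among them, and lay between 0.032 and 0.21 over all 16. Mat2a, the synthetase of most tissues outside the liver, was at 922, 872, and 778 after LNA Control and 923, 934, and 907 after LNA Malat1, which overlap (log2 fold change 0.11, adjusted p = 0.22 by limma), and was named after its values were seen.

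Among the 7 tested Tudor domain genes, whose proteins bind methylated arginine, 2 were higher and 1 lower, with a median of 0.03. Snd1, which binds symmetric dimethylarginine, fell from 1074, 1060, and 988 to 544, 556, and 551 normalized counts, 53.0% of control, with wide separation (log2 fold change −0.92 with SE 0.05, adjusted p = 2.4e-07 by limma). Tdrd6, known from the male germ line, was low and rose from 5, 8, and 11 to 23, 23, and 20 (log2 fold change 1.41 with SE 0.31, adjusted p = 0.0045 by limma). Smn1, the survival of motor neuron protein, had a log2 fold change of −0.03 (adjusted p = 0.76 by limma) and was named after its value was seen.

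Of the 6 tested genes that remove or convert methylarginine or arginine, 2 were higher and 3 lower by adjusted p, beside 14.3% and 14.0% of all genes tested, with a median of −0.33. Ddah1, which degrades free asymmetric dimethylarginine, fell from 86, 94, and 100 to 39, 38, and 48 normalized counts (log2 fold change −1.15 with SE 0.14, adjusted p = 6.5e-05 by limma). Its paralog Ddah2, named after its values were seen, fell from 110, 101, and 112 to 75, 86, and 73 (log2 fold change −0.46 with SE 0.11, adjusted p = 0.0068 by limma). In both genes every LNA Malat1 library was below every LNA Control library. Padi3 and Padi4, peptidylarginine deiminases that convert arginine to citrulline, were at low counts and rose. Padi3 went from 4, 3, and 9 to 23, 16, and 13 (log2 fold change 1.61 with SE 0.39, adjusted p = 0.009 by limma), a call lost without LNA Malat1 replicate 1 (0.066). Padi4 went from 2, 4, and 5 to 11, 9, and 10 (log2 fold change 1.29 with SE 0.39, adjusted p = 0.027 by limma), and this was lost under 6 of 15 alternatives, including without any 1 LNA Malat1 library (0.1, 0.068, and 0.089), without LNA Control replicate 1 (0.063), and after quantile normalization (0.11). Tdrd6, Padi3, and Padi4 lie in the range of means from 5 to 20, where the median log2 fold change of all 3325 genes was 0.37 and 17.2% were called higher. After quantile normalization that median was −0.07.

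Of the 28 glycine- and arginine-rich substrates, 1 was higher, 3 were lower, and 24 did not pass the test, with a median log2 fold change of −0.01. Trp53bp1, a DNA damage response protein with a methylated glycine- and arginine-rich stretch, fell from 720, 743, and 712 to 361, 348, and 358 normalized counts, 48.8% of control (log2 fold change −1.03 with SE 0.05, adjusted p = 1.3e-07 by limma). Mre11a, a nuclease of the same response and a Prmt1 substrate, fell by 0.30 on the log2 scale (adjusted p = 0.0011). Hnrnpu, whose protein the study examined as a partner of Malat1, was at 2334, 2573, and 2549 after LNA Control and 2736, 2657, and 2536 after LNA Malat1, with overlapping groups (log2 fold change 0.09, adjusted p = 0.3 by limma), and was named after its values were seen. None of the 3 other genes reported as arginine methyltransferases, Ndufaf7, Mettl23, and Fbxo11, passed the test (log2 fold changes −0.18, 0.15, and 0.04, limma adjusted p of 0.051, 0.53, and 0.59), and they were named after their values were seen.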

How the data were processed

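Per the labels, total RNA from HL-1 cells was made into stranded libraries, 3 per group. By the paper's methods and the submitters' processing notes, the authors trimmed reads (Trimmomatic 0.39), aligned them (STAR 2.7.7a, mm10, Ensembl annotation), counted those at least partly on exons while leaving out reads on several genes or regions (featureCounts 1.6.5), and used DESeq2 1.30.0. The deposited values are a score, namely counts normalized by 1 factor per library and rounded, so limma was used in place of a count test.

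Genes with a mean of at least 5 (15650 of 21269) were fitted with limma 3.58.1 (R 4.3.3, lmFit, and eBayes with an intensity trend) on log2(normalized count + 1), two-sided, with Benjamini-Hochberg adjustment over all of them. Genes were called where the adjusted p did not exceed 0.05 and the change was 1.5-fold or more. The fit was tested on simulated data. Library factors were recovered from the steps that rounding leaves. Exonic lengths and coding sequences came from GENCODE release 21 for mouse, which holds 21224 of the table's gene identifiers.

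The members, lists, and tests were chosen with earlier results of these data known. The named genes are Malat1, the members, genes overlapping them, the nearest tested gene on each side of Prmt2, the 3 genes with the closest pattern, called genes of the 7 lists, and in each list the 2 genes with the largest change at that adjusted p. Apart from the cell type markers, others are said to be named after their values were seen. Alternatives were the replicate number as a block, other pseudocounts (0.1 and 5), scalings, and filters, no fold minimum or a 2-fold one, leaving out each library, and LNA Malat1 replicates 1 and 3 as 1 sample. Library totals set equal and voom on the recovered reads were added after seeing the data. The labels do not say that equal replicate numbers are pairs, so the main fit used none. Deviations of same-numbered libraries correlated at 0.086, 0.182, and 0.083 over 10490 genes. These values cannot settle pairing, because the LNA Malat1 replicates differed little beyond sampling noise. Amino acid sequences and the gapmer sequences were not analysed here.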

Additional observations from a re-analysis of the deposited data

How the results depend on the processing

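Of 489 values of 31 named genes under the alternatives, 452 stayed on the same side of an adjusted p of 0.05, 32 no longer passed it, and 5 newly passed it. These values include Prmt2, which chose the family, and Mamstr, Nck2, and Plekha8, picked for their likeness to it. Many of the others were named for a call or a large change, so the tally is no measure of stability. The sign changed in 18 of the 452, all in Prmt5, Prmt9, Gm45286, and Yipf2, which did not pass the test. Ncoa2 passed the 1.5-fold minimum in 2 alternatives. The count of called arginine methyltransferase genes, 1, is Prmt2 alone, which chose the family, so that its value of 1 in every leave-one-out fit is no sign of stability, and it became 4 with no fold change minimum. The count over the 7 pathway lists, 8, became 4 with a mean of at least 50, where fewer genes are tested, and 23 with no fold change minimum, and ranged from 5 (without LNA Malat1 replicate 1) to 9 when 1 library was left out. The count over all genes, 1709, became 666 with a mean of at least 50, 4426 with no fold change minimum, and 841 with a 2-fold minimum, and ranged from 1222 to 2015 when 1 library was left out. Of these calls 73.3% were higher in LNA Malat1, against 51.0% after quantile normalization, 47.6% with a mean of at least 50, 50.4% with no fold change minimum, and 88.2% with a 2-fold minimum. For the quantile shift the cause was not tested. With the replicate number as a block, the counts were 1739 over all genes, 8 in the lists, and 1 in the family (Prmt2, as a description). In the pairing check replicates 1, 2, and 3 of LNA Malat1 each correlated best with the same number in LNA Control, at values near 0, a hint from the data and not the design. Under the block Mat1a no longer passed (adjusted p = 0.061). Depth limits the precision of Prmt2, with 18 to 33 recovered reads in LNA Malat1, and of Bhmt, Tdrd6, Padi3, and Padi4, all with a mean under 20 normalized counts.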
